A study of Homo sapiens with 8 samples.

Results

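The autophagy machinery and lysosomal genes are 46 genes chosen by symbol: the ULK initiation complex, the class III phosphatidylinositol 3-kinase (PI3K) complex, the proteins that build the phagophore membrane, the conjugation enzymes, the LC3 and GABARAP proteins, the cargo receptors, the TFEB factors, and the lysosome with its late steps. All 46 symbols were found among the 15767 genes of the count table, and 44 had enough counts to be tested. Their RNA was measured by RNA-seq in HuH7 cells, a hepatoma-derived human cell line of wildtype genotype. Every library came from cells that underwent oxygen-glucose deprivation and reoxygenation (OGD/R): 6 h at 1% oxygen without glucose, then 6 h at normal oxygen. During those last 6 h the medium carried DMSO (I/R+DMSO, n = 4) or 20 µM ginsenoside Rk2, a rare saponin of ginseng (I/R+Rk2, n = 4). Whether the Rk2 medium also held DMSO is not stated in the methods of the study. The question asked of the members was whether Rk2 moved autophagy or lysosomal transcripts after OGD/R, and whether the subgroups moved alike. Since every library came from OGD/R cells, what OGD/R itself did to these genes was not analysed here.

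Autophagy encloses cytoplasm in a double membrane and delivers it to the lysosome. The ULK kinase complex starts the process when nutrients or energy are short, and the class III PI3K complex then marks a membrane with phosphatidylinositol 3-phosphate, which WIPI proteins read. ATG2 proteins feed lipid to the growing phagophore, and the conjugation enzymes attach LC3 and GABARAP proteins to it so that receptors such as SQSTM1 (p62) can bring cargo. Once the autophagosome has fused with the lysosome, cathepsins degrade the content, and the factors TFEB and TFE3 bind E-boxes of lysosomal genes to raise their transcription. Hepatocytes draw on autophagy during starvation. Much of the pathway is controlled at the protein level, by phosphorylation and lipid conjugation, which RNA-seq does not measure.

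The libraries held between 18428485 and 21447045 counts in I/R+DMSO, against 16374082 to 30310479 in I/R+Rk2. The 9 hepatocyte and HuH7 markers, including ALB and AFP, summed to between 4639 and 5130 FPKM (fragments per kilobase of gene and per unit of depth) in I/R+DMSO and between 4980 and 5123 in I/R+Rk2, with none at 0. PTPRC of leukocytes, VWF and CDH5 of endothelium and DCN of fibroblasts were listed at 0 FPKM in every library. The endothelial list summed to 1.07 to 1.87 FPKM in I/R+DMSO against 1.11 to 2.1 in I/R+Rk2, all of it PECAM1. The stellate and fibroblast list summed to 4.9 to 6.7 FPKM in I/R+DMSO against 4.8 to 6.4 in I/R+Rk2, most of it COL1A2. The leukocyte list summed to 27.2 to 32.7 FPKM in I/R+DMSO against 24.2 to 32.7 in I/R+Rk2, nearly all of it CD68, a protein of the lysosomal membrane. The cholangiocyte list summed to 108 to 113 FPKM in I/R+DMSO against 105 to 108 in I/R+Rk2. Of its genes, EPCAM and SOX9 had log2 fold changes of 0.087 and 0.18 and did not pass, and KRT7 was not tested (adjusted p = 0.321 and 0.0715 in edgeR with Benjamini-Hochberg adjustment). KRT19 had a log2 fold change of -0.55 and passed (adjusted p = 0.00205, edgeR). CD14, at under 1 FPKM, had a log2 fold change of -1.25, APOB one of 0.61 and FGB one of -0.27, and these 3 also passed (adjusted p = 0.0430, 0.0124 and 0.0462, edgeR). The part of these markers in the results of the members was not tested. In a bulk measurement of a single cell line, fewer cells that express a gene and less RNA per cell cannot be told apart. No label states that the libraries of a group came from separate cultures, so each p-value measures the spread between these libraries, which may be technical.

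The promoters of the members were compared first by the E-box CACGTG, the core of the element that TFEB binds, because 2 members are TFEB factors and others are known targets. RefSeq promoter windows (GRCh38.p14, 250 bases before to 50 after a start) were matched to 39 of the 46 members, in 49 windows. The E-box, which reads the same on both strands, was found in 5 of these 49 windows, or 10.2%, and in 7.26% of all 35116 windows. The stretches below run 5′ to 3′ along the strand of the gene, with each E-box in capitals. They end at or before the start of the RefSeq window, which can differ from the gene start in GENCODE v29. By GENCODE v29, the stretches of CTSD and ATG3 lie inside the gene and that of ATG14 lies partly inside. LAMP1 held 5 E-boxes before its start within chr13:113297023-113297238 (plus strand), and MCOLN1 held 2 within chr19:7522559-7522623 (plus strand). The other stretches were chr11:1763957-1763986 (minus strand) for CTSD, chr14:55411831-55411875 (minus strand) for ATG14 and chr3:112561963-112561992 (minus strand) for ATG3. The windows held 1 further E-box across the start of LAMP1 and 1 after the start of ATG3, which are not shown.
LAMP1: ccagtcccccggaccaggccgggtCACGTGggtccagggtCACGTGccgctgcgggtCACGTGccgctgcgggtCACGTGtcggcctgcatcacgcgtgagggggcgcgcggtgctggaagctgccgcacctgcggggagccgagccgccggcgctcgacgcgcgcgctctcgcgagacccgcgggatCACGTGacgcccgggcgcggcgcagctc
MCOLN1: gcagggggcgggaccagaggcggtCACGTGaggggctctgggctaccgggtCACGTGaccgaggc
CTSD: gccggccgcgccCACGTGaccggtccgggt
ATG14: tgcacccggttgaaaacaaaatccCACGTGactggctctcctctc
ATG3: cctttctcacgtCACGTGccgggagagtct

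ULK1 and WIPI1, which rose with Rk2 as described further on, held no E-box in their windows. The 90 bases before each RefSeq start are shown with no capitals. They lie at chr12:131894532-131894621 (plus strand) for ULK1 and at chr17:68457497-68457586 (minus strand) for WIPI1. The WIPI1 stretch overlaps the first bases of the gene as annotated in GENCODE v29.
ULK1: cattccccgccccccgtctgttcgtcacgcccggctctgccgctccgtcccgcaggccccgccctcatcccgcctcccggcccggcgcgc
WIPI1: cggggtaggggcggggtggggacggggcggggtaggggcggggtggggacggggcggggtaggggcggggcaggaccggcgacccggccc

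None of the 5 members with an E-box had an adjusted p below 0.05, where 18.2% of all tested genes did. Groups did not overlap in 1 of the 5, MCOLN1, against 28.2% of all tested genes. A list of 5 genes is too short to be set against these shares. After the correction for gene length and GC content described further on, MCOLN1 passed (log2 fold change 0.18, adjusted p = 0.0208, edgeR). On either strand, the FOXO motif GTAAACA was present in the windows of CALCOCO2 and CTSL, or 4.08% of the member windows against 3.42% of all windows. The ATF4 core TGATGCA was present in the window of LAMP1, or 2.04% against 2.63%, and overlapped none of its E-boxes. PIK3C3, ATG2A and ATG2B, which also rose, held none of the 3 motifs in their windows. RB1CC1, LAMP2 and ATG4D, the other called members, had no window to search. The part of TFEB or TFE3 in these results was not tested. A match in a window is a description of its letters and not a binding site.

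Of the 44 tested members, 7 were higher and 1 was lower in I/R+Rk2 at an adjusted p below 0.05 (edgeR quasi-likelihood test, Benjamini-Hochberg adjustment over all 12928 tested genes). ULK1, RB1CC1, PIK3C3, WIPI1, ATG2A, ATG2B and LAMP2 rose, ATG4D fell, and 36 members did not pass. In all, 18.2% of the tested members were called, and the background over all tested genes was 18.2%, so the members were called as often as tested genes in general. Higher calls made up 15.9% of the members against a background of 11.0%, and lower calls 2.27% against 7.23%. The changes were small, and RB1CC1 alone exceeded 1.5-fold, a size that 3.04% of all tested genes reached with an adjusted p below 0.05. The median log2 fold change (log2FC) of the 44 members was 0.04, beside -0.0021 over all tested genes, and 26 of the 44 had a value above 0 against 49.7% of all genes. I/R+DMSO and I/R+Rk2 libraries did not overlap in 12 members, 10 of them higher and 2 lower in I/R+Rk2, or 27.3% against a background of 28.2% (15.4% higher and 12.9% lower).

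**Figure D1:**
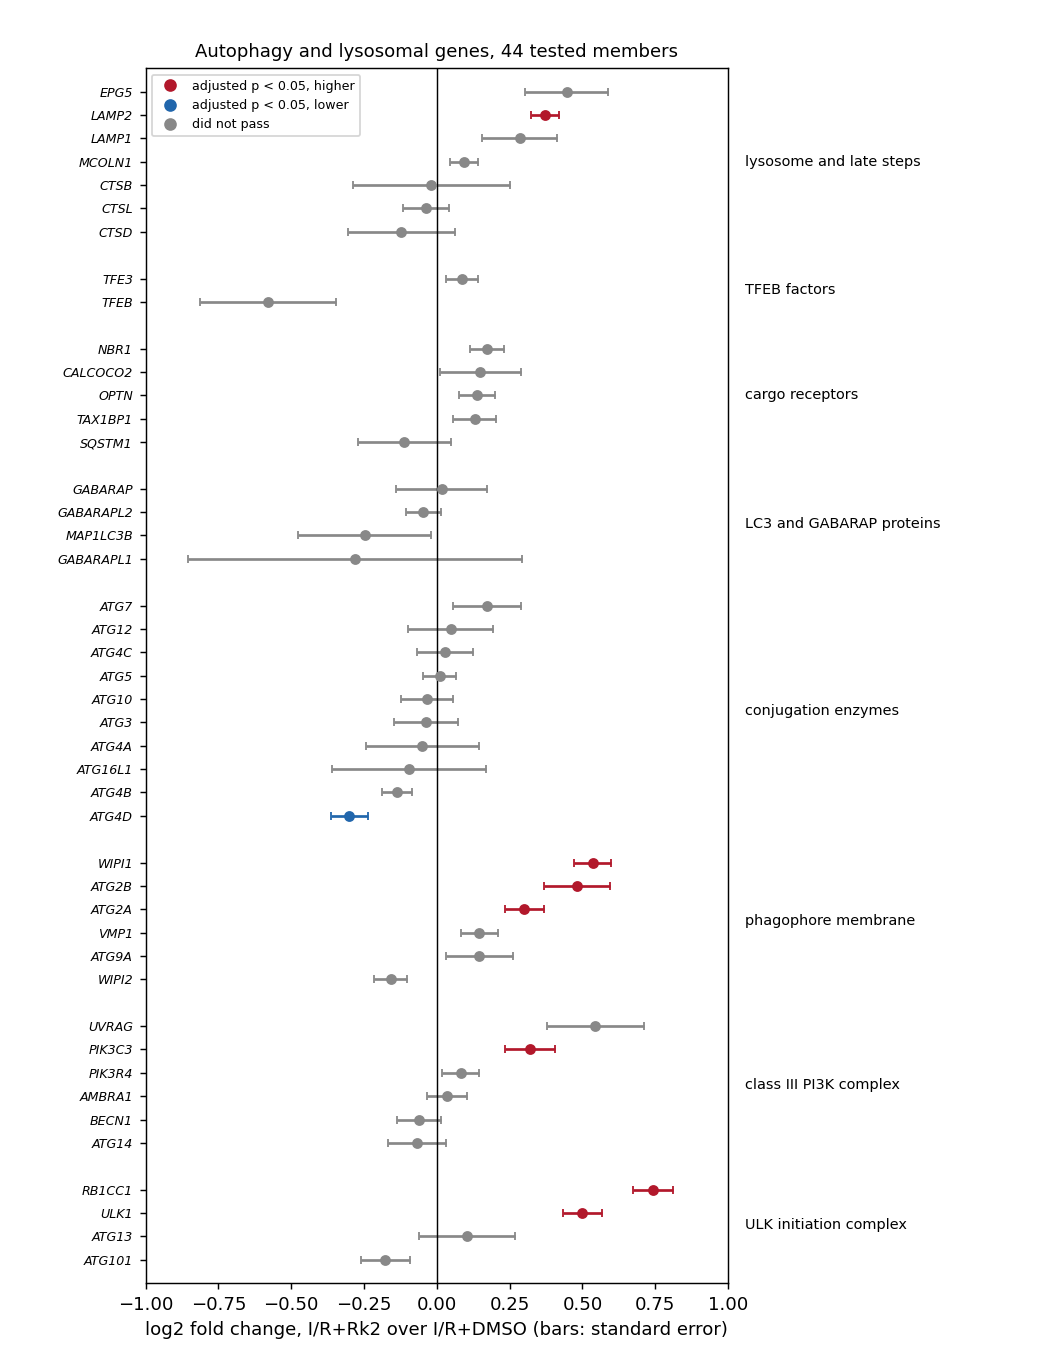
The x axis gives the log2FC of each tested member, I/R+Rk2 over I/R+DMSO, with its standard error, and the members are grouped by role on the y axis. The 7 members called higher sit between 0.30 and 0.74 and come from the ULK complex, the class III PI3K complex, the phagophore membrane group and the lysosome. The only member called lower, ATG4D, lies at -0.30 among the conjugation enzymes.

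The subgroups differed in where their calls fell. Over all tested genes, 11.0% were called higher and 7.23% lower. The ULK initiation complex had 2 of 4 tested members higher (50%) and a median log2FC of 0.30. The phagophore membrane group had 3 of 6 higher (50%) and a median of 0.22. That last count was 1 of 6 after a correction for gene length, alone or together with GC content (backgrounds of 7.94% and 6.22% higher). It was also 1 of 6 without I/R+Rk2 replicate 2. The class III PI3K complex, which acts between the 2, had 1 of 6 higher (16.7%) and a median of 0.06. The conjugation enzymes had 1 of 10 lower (10%) and none higher, with a median of -0.04. The LC3 and GABARAP proteins, the cargo receptors and the TFEB factors had no member called in either direction among 4, 5 and 2 tested, by edgeR or by DESeq2. Their medians were -0.15, 0.14 and -0.25. At an unadjusted p below 0.05 in edgeR, 0 of the LC3 and GABARAP proteins, 1 of the cargo receptors and 1 of the TFEB factors would pass. The lysosomal group had 1 of 7 higher (14.3%) and a median of 0.09. Differences between subgroups were not tested.

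In the ULK initiation complex, ULK1 and RB1CC1 rose. ULK1 (ENSG00000177169, chromosome 12, 131894651 to 131923167, plus strand, in GENCODE v29 on GRCh38) is the kinase of the complex. Its TMM-normalized counts, scaled to library size (CPM), were 29.3, 35.6, 35.2 and 33.9 in the I/R+DMSO libraries 1 to 4 and 46.2, 49.1, 47.8 and 46.6 in the I/R+Rk2 libraries 1 to 4. All 4 I/R+Rk2 libraries were above all 4 I/R+DMSO libraries. The means were 33.5 ± 2.87 and 47.4 ± 1.29 CPM (SD, n = 4 each), a log2FC of 0.50 (SE 0.07, adjusted p = 0.00317, edgeR with Benjamini-Hochberg adjustment). RB1CC1 (ENSG00000023287, chromosome 8, 52622456 to 52745843, minus strand), also called FIP200, is the scaffold that holds the complex together. It had 9.92, 8.70, 9.74 and 10.3 CPM in I/R+DMSO and 16.4, 16.5, 16.1 and 15.7 CPM in I/R+Rk2. Both groups were tight and well separated, with a log2FC of 0.74 (SE 0.07, adjusted p = 0.000656, edgeR), a 1.67-fold difference.

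The other members of the complex did not pass. ATG101, a small partner of ATG13, had 89.2, 81.0, 84.4 and 68.4 CPM in I/R+DMSO against 70.7, 71.3, 66.9 and 76.8 in I/R+Rk2, and the lowest I/R+DMSO library lay inside the range of the I/R+Rk2 libraries (log2FC -0.18, adjusted p = 0.179, edgeR). ATG13, the adaptor that binds ULK1 to RB1CC1, had a log2FC of 0.10 (adjusted p = 0.702, edgeR). Its CPM lay between 50.3 and 74.5 in I/R+DMSO and between 52.6 and 80.7 in I/R+Rk2, with 1 low library in each group. ULK2, the paralog of ULK1, had too few counts for the filter, between 1 and 3 in the I/R+DMSO libraries against between 1 and 4 in the I/R+Rk2 libraries (exact permutation test, two-sided, p = 0.886), so no difference was detectable at this depth. Between the paralogs, only ULK1 was therefore expressed at a level that could be compared, with 6.60 ± 0.334 and 9.28 ± 0.691 FPKM (SD, n = 4 each) against 0.0130 ± 0.00867 and 0.0105 ± 0.00976 for ULK2.

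In the class III PI3K complex the catalytic subunit rose and its partners did not pass. PIK3C3 (ENSG00000078142, chromosome 18, 41955206 to 42087830, plus strand), the lipid kinase VPS34, had 15.1, 18.0, 15.2 and 17.5 CPM in I/R+DMSO and 19.4, 22.9, 20.1 and 19.9 in I/R+Rk2. The lowest I/R+Rk2 library was above the highest I/R+DMSO library, and the log2FC was 0.32 (SE 0.09, adjusted p = 0.0372, edgeR with Benjamini-Hochberg adjustment). BECN1, the Beclin 1 subunit, had 82.3, 78.8, 93.6 and 85.2 CPM against 87.0, 78.8, 87.0 and 73.1, with groups that overlapped and a log2FC of -0.06 (adjusted p = 0.621, edgeR). UVRAG, which takes the place of ATG14 in the complex that acts on endosomes and is named after its values were seen, had 8.37 to 15.1 CPM in I/R+DMSO against 17.2 to 19.6 in I/R+Rk2. Its groups did not overlap, but at a log2FC of 0.55 it did not pass (adjusted p = 0.0558, edgeR). PIK3R4, ATG14 and AMBRA1, the regulatory kinase-like subunit, the autophagy-specific subunit and a Beclin 1 partner, had values between -0.07 and 0.08.

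The call of PIK3C3 depended on the scale and on single libraries. In FPKM it averaged 5.65 ± 1.49 and 5.69 ± 1.82 for I/R+DMSO and I/R+Rk2 (SD, n = 4 each), a ratio of 1.01, and limma on log2(FPKM + 1) gave -0.0017 with an adjusted p of 0.997. The gene length implied by its counts and FPKM was 5002, 5500 and 5033 bases in I/R+DMSO replicate 2, I/R+Rk2 replicate 2 and I/R+Rk2 replicate 3, against 2137 to 2854 in the other 5 libraries. In edgeR its adjusted p was 0.0740 without I/R+DMSO replicate 1, 0.0879 without I/R+DMSO replicate 3, and 0.0569, 0.0879, 0.0718 and 0.0731 without I/R+Rk2 replicates 1, 2, 3 and 4.

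The phagophore membrane group held 3 of the 7 higher calls. WIPI1 (ENSG00000070540, chromosome 17, 68420948 to 68457513, minus strand), a reader of phosphatidylinositol 3-phosphate, had 20.9, 23.8, 24.1 and 21.5 CPM in I/R+DMSO and 31.4, 33.7, 33.1 and 32.4 in I/R+Rk2. Every I/R+Rk2 library lay above every I/R+DMSO library. The log2FC was 0.53 (SE 0.06, adjusted p = 0.00181, edgeR with Benjamini-Hochberg adjustment), and the mean FPKM went from 13.3 ± 1.03 to 19.1 ± 0.936 (SD, n = 4 each). Its close relative WIPI2, which recruits ATG16L1 to the phagophore, did not pass and had a log2FC of -0.16 (adjusted p = 0.0853, edgeR).

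The lipid transfer proteins ATG2A and ATG2B both rose. ATG2A (ENSG00000110046, chromosome 11, 64894546 to 64917248, minus strand) had 31.7, 37.0, 36.0 and 36.4 CPM in I/R+DMSO and 43.1, 45.1, 45.5 and 40.2 in I/R+Rk2, a log2FC of 0.30 (SE 0.07, adjusted p = 0.0199, edgeR with Benjamini-Hochberg adjustment). ATG2B (ENSG00000066739, chromosome 14, 96279202 to 96363870, minus strand), with 8.97, 9.55, 9.85 and 11.2 CPM against 11.5, 13.3, 15.7 and 14.8, had a log2FC of 0.48 (SE 0.11, adjusted p = 0.0238, edgeR). In ATG2B the lowest I/R+Rk2 library stood just above the highest I/R+DMSO library. Adjusted p-values in edgeR rose above 0.05 for ATG2A without I/R+Rk2 replicate 2 (0.0554) or 3 (0.0553). For ATG2B they did so without I/R+DMSO replicate 1 (0.0507), 2 (0.0596) or 3 (0.0563) and without I/R+Rk2 replicate 2 (0.0504), 3 (0.0585) or 4 (0.0677). VMP1, a scramblase of the endoplasmic reticulum, had the highest mean FPKM of the group and did not pass, with 122 to 125 CPM in I/R+DMSO against 134, 147, 121 and 146 in I/R+Rk2 (log2FC 0.15, adjusted p = 0.143, edgeR). ATG9A, the membrane-spanning scramblase of the vesicles that seed the phagophore, had a log2FC of 0.15 and overlapping groups.

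**Figure D2:**
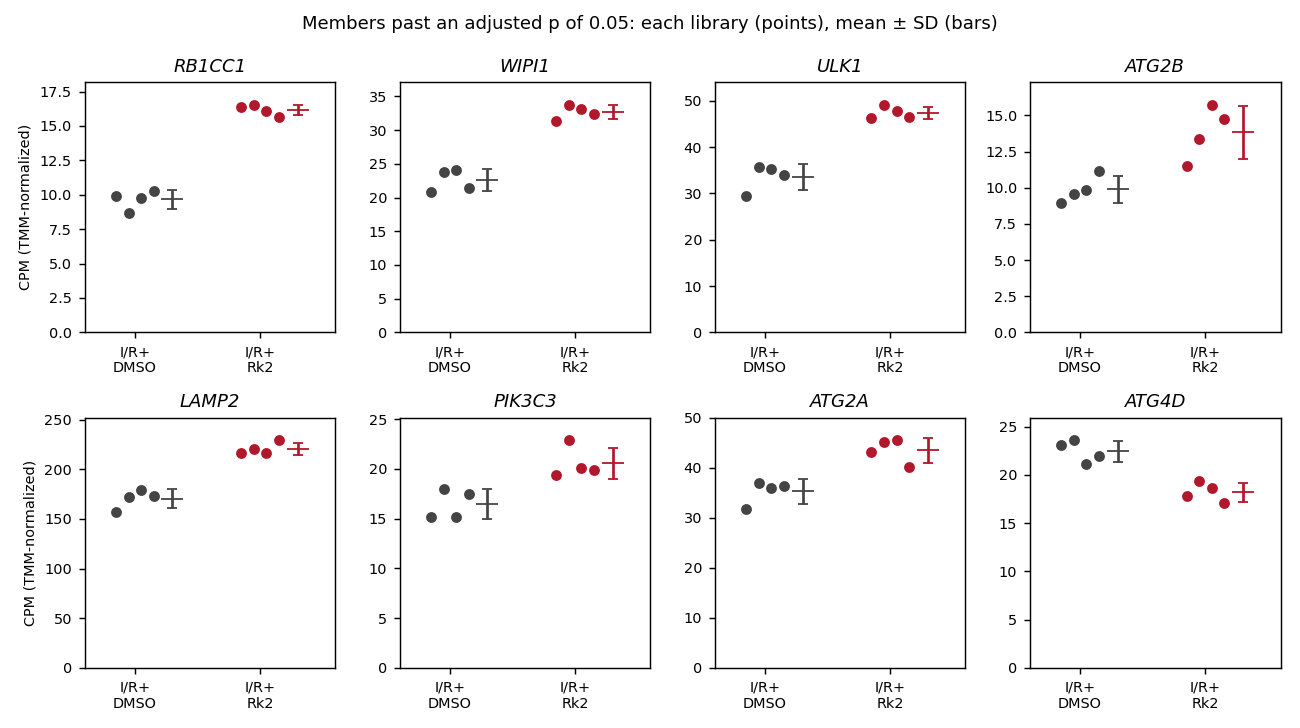
Each panel plots 1 member with an adjusted p below 0.05, with TMM-normalized CPM on a y axis that starts at 0 and the groups on the x axis. Points are libraries, and the bars beside them are the mean and SD of 4. The groups do not overlap in any of the 8 panels, the gap being wide for RB1CC1 and LAMP2 and narrow for ATG2B and PIK3C3.

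Among the conjugation enzymes ATG4D fell. ATG4D (ENSG00000130734, chromosome 19, 10543895 to 10553418, plus strand) is a protease that trims LC3 and GABARAP proteins and frees them from lipid. It had 23.1, 23.6, 21.1 and 21.9 CPM in I/R+DMSO and 17.8, 19.3, 18.7 and 17.1 in I/R+Rk2, with all 4 I/R+Rk2 libraries below all I/R+DMSO libraries. The log2FC was -0.30 (SE 0.06, adjusted p = 0.0168, edgeR with Benjamini-Hochberg adjustment). Of its paralogs, ATG4B, the main LC3 protease and named after its values were seen, also had groups that did not overlap, with 61.6 to 68.8 CPM against 55.5 to 60.8, but did not pass (log2FC -0.14, adjusted p = 0.0996, edgeR). ATG4A and ATG4C had log2FC values of -0.05 and 0.03. ATG3, the E2-like enzyme that transfers LC3 to lipid and the enzyme with the highest mean FPKM, had 106, 98.6, 82.1 and 84.2 CPM against 103, 82.9, 80.4 and 95.3, and its groups overlapped (log2FC -0.04, adjusted p = 0.845, edgeR). The E1-like ATG7, the E2-like ATG10, and ATG5, ATG12 and ATG16L1, which form the complex that directs LC3 to the membrane, lay between -0.10 and 0.17.

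The LC3 and GABARAP proteins were expressed at levels that depended more on the library than on the group. MAP1LC3B, the LC3 isoform most used as a marker of autophagosomes, had 79.3, 166, 93.7 and 83.1 CPM in I/R+DMSO and 87.6, 88.7, 95.9 and 83.3 in I/R+Rk2. Apart from I/R+DMSO replicate 2, all its libraries lay between 79.3 and 95.9 CPM. The log2FC was -0.25 (SE 0.23, adjusted p = 0.489, edgeR), and it was 0.06 without I/R+DMSO replicate 2. GABARAP, the member of the group with the highest mean FPKM, had 75.2, 47.3, 54.0 and 59.2 CPM against 53.3, 65.6, 68.5 and 51.3, with a log2FC of 0.02 (adjusted p = 0.953, edgeR). GABARAPL1, named after its values were seen, had 1536, 1480, 346 and 1248 counts in I/R+DMSO and 2371, 350, 393 and 1337 in I/R+Rk2. Its libraries thus split into 5 of 58.5 to 81.5 CPM and 3 of 18.5 to 23.8 CPM, and both levels occurred in both groups (log2FC -0.28, SE 0.57, adjusted p = 0.769, edgeR). GABARAPL2 was steadier, at 65.5 to 76.4 CPM against 63.6 to 70.7. MAP1LC3A was below the count filter, with 0 counts in every I/R+DMSO library and 2 counts in a single I/R+Rk2 library.

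**Figure D3:**
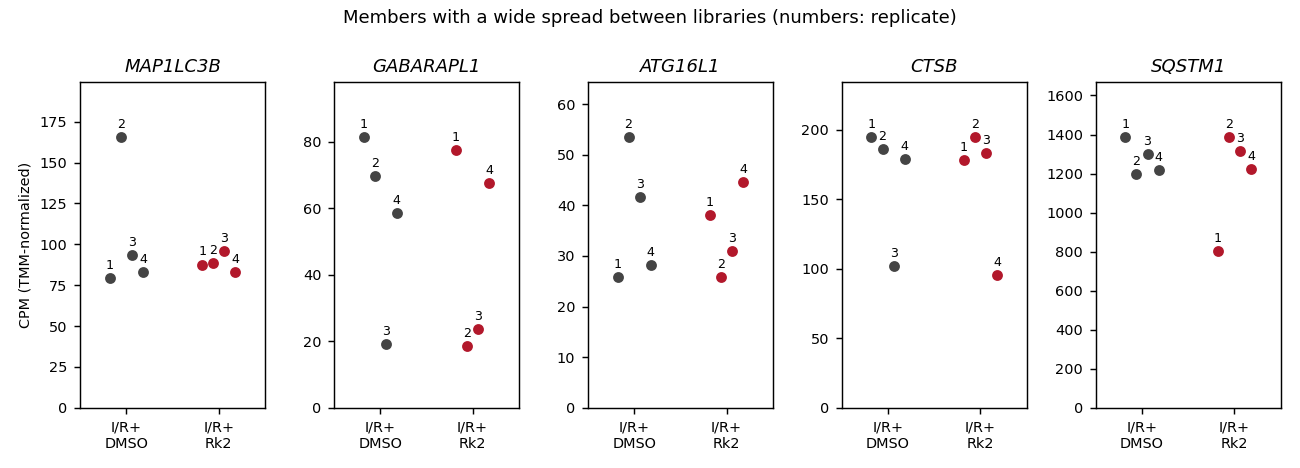
The panels plot 5 members named for their spread, with TMM-normalized CPM on a y axis that starts at 0, the groups on the x axis and the replicate number beside each point. A single library departs from the rest in MAP1LC3B (I/R+DMSO replicate 2) and SQSTM1 (I/R+Rk2 replicate 1), 1 library of each group is low in CTSB, and GABARAPL1 has 3 libraries near 20 CPM.

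The cargo receptors did not pass. SQSTM1, which links ubiquitin-tagged cargo to LC3, had the highest level per length of all members, with 569 ± 47.1 FPKM against 565 ± 108 FPKM in I/R+DMSO and I/R+Rk2 (SD, n = 4 each). Its CPM values were 1389, 1196, 1301 and 1219 in I/R+DMSO and 802, 1388, 1314 and 1223 in I/R+Rk2, so that I/R+Rk2 replicate 1 alone was low. The log2FC was -0.11 (SE 0.16, adjusted p = 0.666, edgeR) and 0.04 without that library. NBR1, OPTN, TAX1BP1 and CALCOCO2, the other ubiquitin-binding receptors, had log2FC values between 0.13 and 0.17. The lowest adjusted p of the 5 receptors was that of NBR1, at 0.0757 (edgeR), and NBR1 was called higher when counts were scaled by library size only and when I/R+Rk2 replicate 1 was left out.

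The TFEB factors did not pass either. TFEB was scarce, with 3.13, 2.54, 2.15 and 3.23 CPM in I/R+DMSO and 1.21, 2.06, 1.81 and 2.38 in I/R+Rk2, and its groups overlapped (log2FC -0.58, SE 0.23, adjusted p = 0.118, edgeR). TFE3, its relative, was far more abundant per length, with 54.8 ± 3.20 and 59.5 ± 3.11 FPKM (SD, n = 4 each) against 1.05 ± 0.194 and 0.771 ± 0.235 for TFEB. The CPM values of TFE3 were 214, 219, 240 and 211 against 223, 247, 243 and 226 (log2FC 0.09, adjusted p = 0.299, edgeR). These are transcript levels, and the nuclear entry through which both factors are mainly controlled was not measured.

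In the lysosomal group LAMP2 rose. LAMP2 (ENSG00000005893, chromosome X, 120427827 to 120469365, minus strand), a major glycoprotein of the lysosomal membrane, had 157, 172, 180 and 173 CPM in I/R+DMSO and 217, 220, 216 and 229 in I/R+Rk2. The groups were well apart, with a log2FC of 0.37 (SE 0.05, adjusted p = 0.00229, edgeR with Benjamini-Hochberg adjustment) and a 1.33-fold higher mean FPKM. LAMP1, the companion glycoprotein with the 5 E-boxes before its start, had 251, 195, 194 and 187 CPM against 281, 200, 263 and 262, and did not pass (log2FC 0.28, SE 0.13, adjusted p = 0.161, edgeR). In LAMP1, I/R+DMSO replicate 1 was high and I/R+Rk2 replicate 2 was low, each within the range of the other group.

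The proteases and the channel of the lysosome did not pass. CTSD, the aspartic protease cathepsin D, with the highest mean FPKM of the group, had 285, 207, 268 and 275 CPM against 331, 209, 217 and 192 (log2FC -0.12, adjusted p = 0.683, edgeR). CTSB, a cysteine protease named after its values were seen, had 195, 186, 102 and 179 CPM against 178, 195, 184 and 95.7, with a log2FC of -0.02 (adjusted p = 0.973, edgeR). CTSL, another cysteine protease, had a log2FC of -0.04. Named after their values were seen, MCOLN1, the calcium channel of the lysosome, and EPG5, a tether that brings autophagosomes to lysosomes, had groups that did not overlap. MCOLN1 had 47.1 to 51.2 CPM against 51.5 to 54.9 (log2FC 0.09, adjusted p = 0.210, edgeR), and EPG5 had 11.8 to 17.6 against 18.3 to 24.5 (log2FC 0.45, adjusted p = 0.0627, edgeR).

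Gene length moved with the calls. A length was derived for each gene from its counts and FPKM, and the log2FC rose with it (Spearman's rho 0.388 over 12926 genes and 0.579 over the 44 members). The points are genes measured in the same 8 libraries, not independent replicates. The 7 members called higher had a median length of 4322 bases, the other 37 tested members 2613 and all tested genes 2916. When all genes were cut into 4 equal bins by length, from the shortest to the longest, 1 of 11, 1 of 14, 2 of 11 and 3 of 8 members were called higher, where the shares of all genes were 2.26%, 7.03%, 13.0% and 21.5%. ATG2B, at 11547 bases, was the longest member, and the called member WIPI1, at 1698 bases, was in the shortest bin.

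The fit was repeated with a correction for gene length in each library. RB1CC1 then had a log2FC of 0.65, WIPI1 0.61, ULK1 0.37, LAMP2 0.32 and PIK3C3 0.30, and these 5 still passed (adjusted p of 0.00124, 0.00197, 0.00421, 0.00261 and 0.0408 in edgeR). ATG2A, at 0.12 (adjusted p = 0.217), ATG2B, at 0.21 (adjusted p = 0.176), and ATG4D, at -0.21 (adjusted p = 0.0521), no longer passed in edgeR. The members called were then 5 higher and 0 lower, against backgrounds of 7.94% and 9.61%. With length and GC content corrected together, RB1CC1 (0.51), WIPI1 (0.62), ULK1 (0.43) and LAMP2 (0.19) passed, and MCOLN1 (0.18, adjusted p = 0.0208, edgeR) joined them, so that 5 were higher and 0 lower against backgrounds of 6.22% and 10.0%. PIK3C3, at 0.18 (adjusted p = 0.185, edgeR), did not. The median of the ULK initiation complex was 0.21 after the length correction and 0.26 after both, and that of the phagophore membrane group was 0.13 and 0.15.

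**Figure D4:**
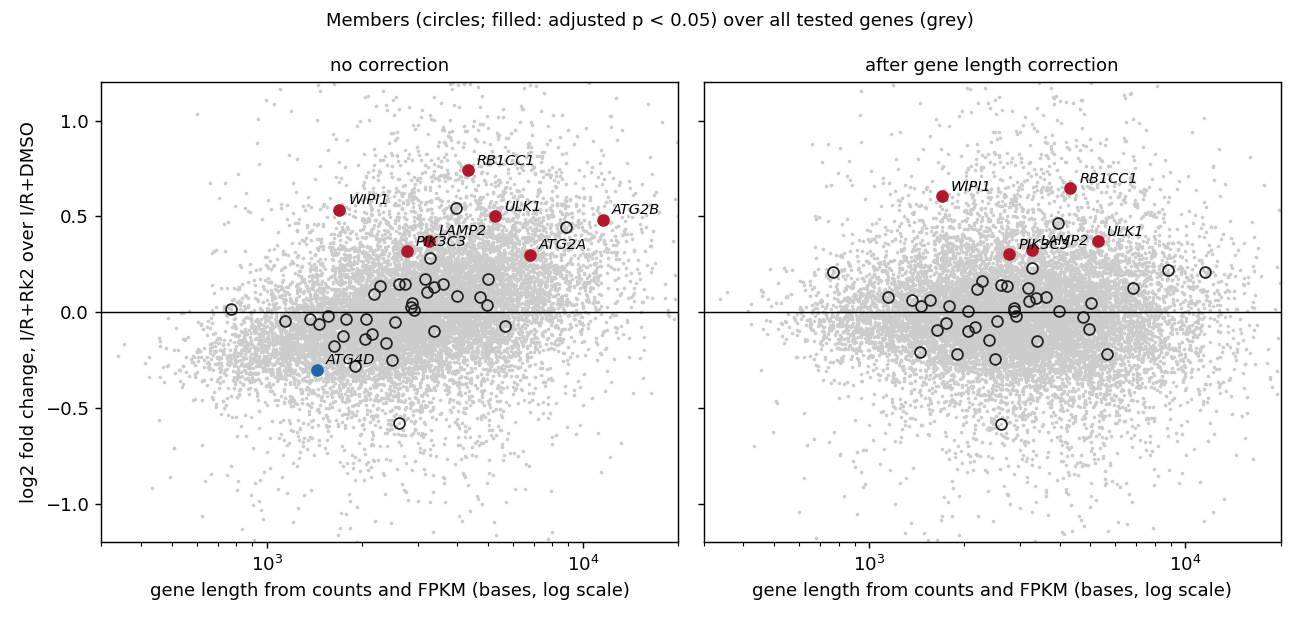
Derived gene length in bases (log axis) is plotted against the log2FC, without a length correction on the left and with it on the right. Grey dots are all tested genes, of which those outside the axes are not shown, and circles are the members, filled and named where the adjusted p is below 0.05. The upward slope of the grey cloud on the left is absent on the right, where RB1CC1, WIPI1, ULK1, LAMP2 and PIK3C3 stay filled.

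The derived length itself differed between libraries by at least 1.5 times in 15 members, so counts and FPKM need not move alike. RB1CC1 was such a member, like PIK3C3, with an implied length of 7910 and 7967 bases in I/R+DMSO replicates 3 and 4 and of 3577 to 4892 in the other libraries. Its FPKM was 1.98, 2.30, 1.21 and 1.28 in I/R+DMSO and 3.92, 4.38, 3.67 and 4.45 in I/R+Rk2, a ratio of means of 2.42, beside 1.67-fold in counts. ATG2B had a ratio of 1.84 in FPKM and a fold of 1.40 in counts. LAMP2, whose implied length varied between 3211 and 3309 bases, had a ratio of 1.33 in FPKM beside its log2FC of 0.37 in counts. The reads of some members may include those of other genes, since the annotation that was counted and its strand setting are not given in the sources used here. In GENCODE v29, exons of 5 members overlap another gene on the same strand (VMP1, ATG9A, GABARAP, CTSD and MCOLN1), and exons of 21 overlap a gene on the opposite strand, among them WIPI1 (ARSG), ATG2B (GSKIP) and ATG4D (KRI1).

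Other genes of the same pathways were examined in 6 lists. Of 128 tested genes, 27 were higher and 4 lower, or 21.1% and 3.13% against backgrounds of 11.0% and 7.23%, with a median log2FC of 0.08. After the length correction 23 were higher and 0 lower, against backgrounds of 7.94% and 9.61%. The higher count was 16 without I/R+DMSO replicate 2 and 15, 17 and 15 without I/R+Rk2 replicates 2, 3 and 4, and the lower count was between 1 and 2 without I/R+DMSO replicate 2 or 3 or any 1 of the 4 I/R+Rk2 libraries.

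The vacuolar ATPase, the proton pump that acidifies the lysosome, had 3 of 16 genes higher, or 18.8% against a background of 11.0%. It had 0 lower (1 lower at an unadjusted p below 0.05 in edgeR, and 0 in DESeq2). The higher genes were ATP6V1C1 (log2FC 0.37), the catalytic subunit ATP6V1A (0.20) and ATP6V0A2 (0.26). After the length correction ATP6V1A, at 0.068 (adjusted p = 0.279), and ATP6V0A2, at 0.11 (adjusted p = 0.257), no longer passed in edgeR. Of the 42 lysosomal hydrolases and their cofactors, 5 were higher and 1 was lower, or 11.9% and 2.38% against backgrounds of 11.0% and 7.23%. NEU1, the sialidase, rose by 0.56 on the log2 scale, with 98.7, 100.5, 99.5 and 94.4 CPM in I/R+DMSO and 138, 151, 149.7 and 141 in I/R+Rk2. LIPA, the acid lipase of cholesterol esters, rose by 0.24, and the protease CTSH fell by 0.35, with an adjusted p of 0.0544 after the length correction (edgeR).

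Of 23 lysosomal membrane and sorting genes, 6 were higher and 1 was lower, or 26.1% and 4.35% against backgrounds of 11.0% and 7.23%. SLC17A5, which exports sialic acid from the lysosome, rose by 0.70, from 54.0, 60.6, 60.9 and 58.2 CPM to 93.3, 92.5, 95.3 and 97.5 CPM. NPC1, the cholesterol exporter, rose by 0.40 and TMEM192 by 0.48, while GNPTG, a subunit of the enzyme that tags hydrolases with mannose 6-phosphate, fell by 0.26. TMEM192 had a log2FC of 0.26 after the length correction and did not pass in limma on FPKM (adjusted p of 0.133 and 0.136 with the 2 pseudocounts), and GNPTG did not pass after the length correction (adjusted p = 0.0660, edgeR). Of 17 genes for fusion with the lysosome, 4 were higher and 1 was lower, or 23.5% and 5.88% against the same backgrounds. Among them were the tether TECPR1 (0.48), the HOPS subunits VPS41 (0.21) and VPS18 (0.18), and the SNARE protein VAMP8 (-0.33). After the length correction VPS41, at 0.081 (adjusted p = 0.164), VPS18, at 0.084 (adjusted p = 0.326), and VAMP8, at -0.17 (adjusted p = 0.0929), no longer passed in edgeR. SNAP29 and RAB7A are named after their values were seen. SNAP29, the other higher gene, no longer passed (0.045, adjusted p = 0.544, edgeR). RAB7A, not called before the correction, passed after it (0.29, adjusted p = 0.0355, edgeR). With TECPR1 and RAB7A, 2 of the 17 fusion genes were then higher and 0 lower, against backgrounds of 7.94% and 9.61%. TECPR1 still passed there, but in limma on FPKM it had 0.023 and 0.021 (adjusted p of 0.948 and 0.957). The organelle-specific receptors had 3 of 16 higher and 1 lower, or 18.8% and 6.25% against backgrounds of 11.0% and 7.23%. The partners of the LC3 system and of nucleation had 6 of 14 higher, or 42.9% against 11.0%. With each library left out in turn, CTSH, VPS18, VPS41, ATP6V0A2 and GNPTG failed in 5 to 7 of the 8 fits. Without I/R+DMSO replicate 2 or 3 or any 1 of the I/R+Rk2 replicates, the fusion genes called higher were 1 or 2 and the partners of the LC3 system and of nucleation 2 or 3. Without I/R+Rk2 replicate 2, 1 vacuolar ATPase gene was called higher. The organelle-specific receptors called higher were 1 without I/R+Rk2 replicate 2 or 4, and likewise without I/R+DMSO replicate 2.

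**Figure D5:**
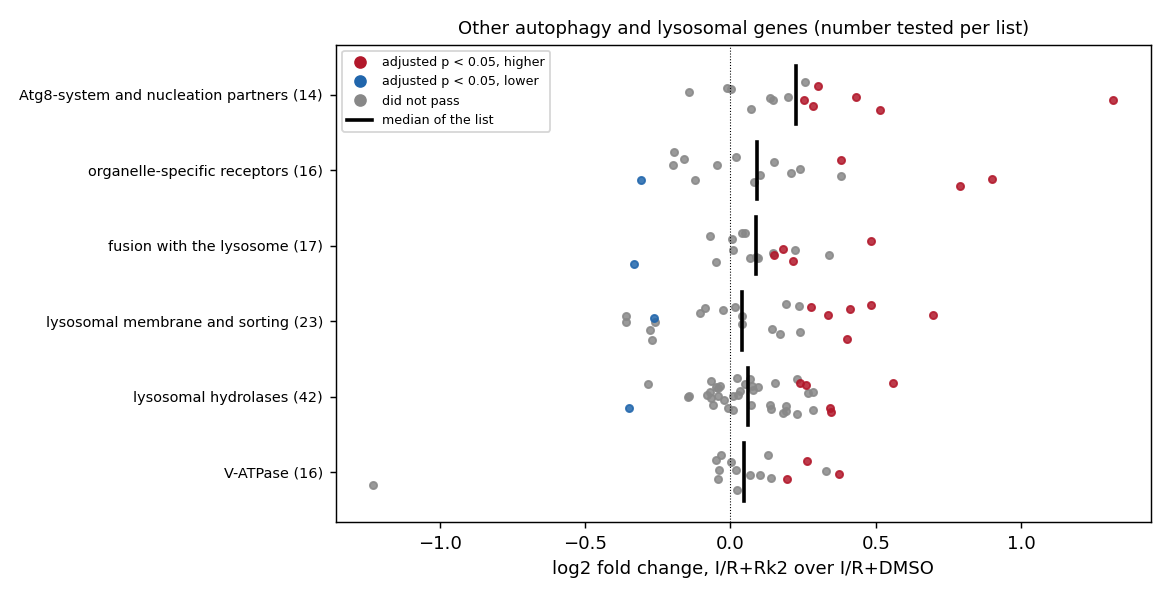
Each point is 1 tested gene of the 6 lists on the y axis, placed by its log2FC on the x axis, with vertical scatter added for legibility and a black bar at the median of the list. The medians lie between 0.04 and 0.23, the highest being that of the partners of the LC3 system and of nucleation, and the grey point at -1.23 among the vacuolar ATPase genes is ATP6V0C, which did not pass.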

How the data were processed

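RNA-seq of HuH7 cells was analysed in 8 libraries, grouped by their treatment label. Per the labels and the methods of the study, the MGIEasy RNA Library Prep Kit was used, and the submitters' processing notes name FastQC 0.11.5, HISAT2 2.2.1, StringTie 1.3.3 and hg38. The tool that counted reads, its strand setting and the annotation are not given in the sources used here. The authors deposited raw counts per gene (15767 genes) and FPKM, normalized for length and depth (19799 genes). Dates stood in place of 22 gene symbols, holding 0.111% of the counts.

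Genes reaching 10 counts in 4 or more libraries (12928) were normalized by TMM and tested with the robust quasi-likelihood test of edgeR 4.0.16 in R 4.3.3, modelling condition alone, and adjusted by Benjamini-Hochberg. A positive log2 fold change means more RNA with Rk2. The biological coefficient of variation was 17.1%. Gene length was derived as CPM over FPKM, and GC content came from the longest GENCODE v29 transcript. Loess corrections used a span of 0.5. The other alternatives were DESeq2 1.42.0, upper-quartile and library size normalization, no filter, at least 50 counts in every library, limma 3.58.1 on FPKM plus 1 or plus 0.1 in log2 (genes averaging 0.5 FPKM or more), a replicate block, and leaving out each library. The fit was tested on simulated data.

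The members and gene lists were chosen with earlier results of these data known. Values are given for every called member, for the member with the highest mean FPKM in each subgroup, for MAP1LC3B, SQSTM1, TFEB, LAMP1 and ULK1, and for up to 3 called genes per direction with the smallest p in each other list, of which 1 is not reported here. Promoters are from RefSeq, and had no entry for CTSB, RB1CC1, MAP1LC3A, LAMP2, ATG4D, UVRAG and EPG5.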

Additional observations from a re-analysis of the deposited data

Results flagged for a closer look

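Single libraries stood far from the other 3 of their group in 11 of the 88 groups examined (44 members in each condition), with a gap over the 95% critical value of Dixon's test. Chance alone flags about 1 in 20 groups. In the initiation and nucleation genes, ATG13 had 52.6 CPM in I/R+Rk2 replicate 1 against 76.5 to 80.7 in the others, PIK3R4 had 50.5 CPM in I/R+DMSO replicate 1 against 59.5 to 60.3, and ATG14 had 35.2 CPM in I/R+Rk2 replicate 3 against 46.7 to 48.0. ATG9A had 56.7 CPM in I/R+DMSO replicate 1 against 46.8 to 48.1, and ATG12 had 39.0 CPM in I/R+Rk2 replicate 2 against 53.5 to 55.7. Among the LC3 and GABARAP proteins, MAP1LC3B had 165.9 CPM in I/R+DMSO replicate 2 against 79.3 to 93.7, and GABARAPL2 had 63.6 CPM in I/R+Rk2 replicate 4 against 69.7 to 70.7. In the lysosome, LAMP1 had 250.6 CPM in I/R+DMSO replicate 1 against 186.6 to 195, and MCOLN1 had 54.9 CPM in I/R+Rk2 replicate 2 against 51.5 to 52.0. CTSB was low in 1 library of each group, with 101.7 CPM in I/R+DMSO replicate 3 against 178.7 to 194.5 and 95.7 CPM in I/R+Rk2 replicate 4 against 178.4 to 195.1. None of these 11 groups belongs to a member with an adjusted p below 0.05.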

How the results depend on the processing

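ULK1, RB1CC1, WIPI1 and LAMP2 passed in all 10 alternatives and all 8 fits with a library left out. Between 5 and 10 members were called under the alternatives, and 5 to 9 with a library left out (4 to 7 higher and 1 to 2 lower). DESeq2 added UVRAG and EPG5. Calls over all genes moved as well. The 10 members called by DESeq2 stood beside 3010 of 12928 genes, and the 5 called by either limma beside 1121 and 1106 of 11884. With a library left out, 1294 to 2275 genes were called, against 2351 in the main fit. No member was lower (0) under limma, the length correction or the length and GC correction. Replicate numbers did not pair the libraries (correlations of -0.0094 to 0.085), and with a replicate block the same 8 members were called, with 1814 calls over all genes against 2351 and 1 lower call in the other lists.

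Over all genes, limma on log2(FPKM + 1) and log2(FPKM + 0.1) called 812 and 798 higher and 309 and 308 lower, against 1416 and 935, and the length and GC correction called 804 higher. Higher genes made up 60.2% of calls, 48.9% with upper-quartile factors, 70.6% with library size only, 72.4% and 72.2% under limma, 45.2% after the length and 38.3% after the length and GC correction. With a library left out, 866 to 1410 were higher and 428 to 884 lower, the member median was 0.023 to 0.082, the lysosomal median 0.071 to 0.17, and the other lists had 15 to 25 higher and 1 to 5 lower.

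The ULK median was 0.11 without a filter and 0.21 after the length correction. That of the class III PI3K complex was -0.0075 and -0.0085 under limma with 1 and 0.1 added, 0.0018 after the length and -0.025 after the length and GC correction. The phagophore median was 0.13 after the length correction, the LC3 and GABARAP median -0.018 under limma with either value added, the TFEB factor median 0.087 at 50 counts in every library, which leaves TFE3 alone, and -0.050 under limma with 1 added, and the lysosomal median 0.18 after both corrections. Lower calls in the other lists were 2 with library size only, 1 under either limma and 0 after the length correction.

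Signs turned for PIK3C3 under limma (-0.0017 and -0.0031), ATG3 under limma (0.054 and 0.056) and after the length correction (0.0068), BECN1 after the length (0.031) and both corrections (0.0044), GABARAP with upper-quartile factors (-0.011), and CTSD (0.011), ATP6V1A (-0.023) and VPS41 (-0.0053) after both corrections. With a library left out, the ranges crossed 0 for ATG3 (-0.11 to 0.033), MAP1LC3B (-0.36 to 0.058), GABARAP (-0.075 to 0.16) and SQSTM1 (-0.20 to 0.035). The cause was not tested. Fits without a library have fewer samples. Depth limited MAP1LC3A and ULK2, and intervals of TFEB are wide at 1.21 to 3.23 CPM.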

Other observations

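Of the 16 tested organelle-specific receptors, 3 were higher and 1 was lower, or 18.8% and 6.25% against backgrounds of 11.0% and 7.23%. After the length correction 1 of the 16 was higher and 0 lower, against backgrounds of 7.94% and 9.61%. RETREG1, a receptor for the endoplasmic reticulum also called FAM134B, had 2.23, 2.82, 2.75 and 3.09 CPM in I/R+DMSO and 4.62, 5.03, 5.20 and 4.04 in I/R+Rk2, a log2FC of 0.79 (adjusted p = 0.00735, edgeR with Benjamini-Hochberg adjustment). SEC62 rose by 0.38 in log2 (adjusted p = 0.0256, edgeR), with 86.5 to 117 CPM against 126 to 134. CCPG1 rose by 0.90 (adjusted p = 0.0423, edgeR), but its groups overlapped, with 36.6, 32.0, 28.4 and 52.5 CPM against 62.1, 79.3, 47.6 and 90.5. TEX264 fell by 0.31 (adjusted p = 0.0375, edgeR), with 23.5 to 30.7 CPM against 21.4 to 22.2. RTN3 (0.38, adjusted p = 0.357) and CALCOCO1 (0.24, adjusted p = 0.113), which also serve the endoplasmic reticulum, did not pass in edgeR. After the length correction SEC62 had 0.23 (adjusted p = 0.198), CCPG1 0.83 (adjusted p = 0.0535) and TEX264 -0.22 (adjusted p = 0.0602), and none of these 3 passed in edgeR. SEC62 and TEX264 also failed with the replicate block (adjusted p of 0.0549 and 0.0626, edgeR), and CCPG1 and TEX264 in limma on FPKM. RETREG1 passed in the 9 alternatives that tested it and with every library left out, whereas CCPG1 and TEX264 did not pass in 6 of the 8 fits with a library left out and SEC62 in 4.

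Genes whose proteins bind LC3 and GABARAP proteins or act beside them included the largest change of the 6 other lists. TP53INP1, a stress-induced protein that binds LC3, had 9.87, 13.9, 14.8 and 13.7 CPM in I/R+DMSO and 33.1, 29.4, 33.3 and 34.8 in I/R+Rk2, a log2FC of 1.32 (adjusted p = 0.000702, edgeR) and of 1.15 after the length correction. Its relative TP53INP2 rose by 0.52 (adjusted p = 0.00239, edgeR), with 27.8 to 33.3 CPM against 41.6 to 46.3. TBK1, a kinase that phosphorylates cargo receptors, rose by 0.28 (adjusted p = 0.0216, edgeR) and did not pass in 4 of the 8 fits with a library left out. ATP6V0C, a membrane subunit of the proton pump named after its values were seen, had 235 and 209 CPM in I/R+DMSO replicates 1 and 3 and 53.6 to 72.0 CPM in the other 6 libraries (log2FC -1.23, adjusted p = 0.112, edgeR).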
